A study of Homo sapiens with 24 samples.

Results

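The genes described here are 37 genes of the lysosome and of autophagy, chosen by symbol. They comprise 15 lysosomal hydrolases, 5 lysosomal membrane proteins and channels, 5 genes of the V-ATPase proton pump, 2 transcription factors and 10 autophagy genes. PSAP, an activator precursor and not itself an enzyme, is counted among the hydrolases throughout. Of the 37, 36 had a named probe on the BeadChip, 53 probes in all. A gene was tested in a line when a probe of it was detected, with a detection p-value below 0.01, on at least 3 of the line's 12 arrays, and its brightest such probe was read. By this filter 34 of the 37 were tested in WM35 and as many, 34, in Mel-624, with 33 in both, among 9569 and 9292 genes tested. TFEB was detected on 0 of 12 WM35 arrays and tested in Mel-624 alone. MCOLN3 was detected on 1 of 12 Mel-624 arrays and tested in WM35 alone. CTSK was detected on 0 and 1 arrays of the lines and no probe was named CTSS, so neither was tested.

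The study profiled total RNA of the human melanoma cell lines WM35 and Mel-624 on 24 arrays, 3 for each of 8 groups, to build expression signatures of insulin-like growth factor 1 (IGF1) signalling. WM35 cells were kept for 24 h in normoxia (21% oxygen) or hypoxia (1% oxygen), and were left unstimulated (Control) or given 100 ng/mL recombinant human IGF1 for the last 6 h. Mel-624 cells were transfected with a non-targeting siRNA pool (siControl) or a pool against the IGF1 receptor (siIGF1R, spelled siIGFR1 in some labels) and kept for 3 days in normoxia or hypoxia, with no oxygen percentage given for this line. All cultures grew in medium with serum, so the WM35 controls also received the growth factors of serum. Replicates carry the letters A, B and C, with no word on whether they are separate cultures. The p-values therefore cover array-to-array spread only, which may be technical. The lines were hybridised to different BeadChips, and line, chip, hours of hypoxia and handling cannot be told apart.

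Lysosomes are acidic organelles in which hydrolases break down proteins, glycans and lipids, and the V-ATPase pumps in the protons that these enzymes need. Autophagy delivers cytoplasm to them: the ULK1 kinase starts the formation of a double membrane, a lipid kinase built on BECN1 marks it, and proteins of the ATG8 family, such as MAP1LC3B and GABARAPL1, are joined to it and bind cargo receptors such as SQSTM1. Growth factor signalling through mTORC1 holds ULK1 and the transcription factors TFEB and TFE3 in check, and TFEB, TFE3 and their relative MITF, the lineage factor of melanocytes, bind the CACGTG core found in many lysosomal promoters. FOXO factors, which are restrained by AKT below the IGF1 receptor, bind the core GTAAACA.

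RefSeq promoter windows (GRCh38.p14, 250 bases before to 50 after the start) were at hand for 26 of the 37 genes. CACGTG, searched on both strands, lay in 8 of these 26, against 7.4% of 27305 promoters of all genes. Its longer form TCACGTGA, which contains it, lay in 5 of the 26 against 1.0% of all. GTAAACA or its reverse complement lay in 1 of the 26, CTSL, against 3.4% of all. LAMP1 held CACGTG at 6 places, CTSA, GAA and MCOLN1 at 2 each, and ATG14, ATP6V0D1, CTSD and NEU1 at 1. Shown here are the last 160 bases before the start of CTSA and GAA, which rose in WM35 hypoxia, of MCOLN1, which fell in Mel-624 hypoxia, and of CTSL, which rose with siIGF1R. All are read on the + strand, with the searched motifs in capitals, at chr20:45891175-45891334, chr17:80101421-80101580, chr19:7522464-7522623 and chr9:87725959-87726118. A match is a description of letters and not a site, and any part of the motifs in the changes was not tested.
CTSA: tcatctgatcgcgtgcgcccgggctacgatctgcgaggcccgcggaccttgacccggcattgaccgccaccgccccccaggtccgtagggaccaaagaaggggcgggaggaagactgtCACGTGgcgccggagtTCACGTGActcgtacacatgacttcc
GAA: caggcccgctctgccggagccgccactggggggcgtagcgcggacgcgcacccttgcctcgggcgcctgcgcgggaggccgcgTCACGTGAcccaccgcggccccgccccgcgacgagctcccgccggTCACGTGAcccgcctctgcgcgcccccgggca
MCOLN1: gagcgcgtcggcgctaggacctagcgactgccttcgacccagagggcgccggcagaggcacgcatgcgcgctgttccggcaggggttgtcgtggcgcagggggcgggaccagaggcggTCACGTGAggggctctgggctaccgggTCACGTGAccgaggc
CTSL: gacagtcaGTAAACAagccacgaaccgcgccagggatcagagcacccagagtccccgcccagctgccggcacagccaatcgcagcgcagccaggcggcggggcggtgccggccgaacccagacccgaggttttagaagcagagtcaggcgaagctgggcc

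Levels are given as normalized log2 intensity, and differences as log2 differences ± standard error (SE) between means of 3 arrays. A gene was called when limma's Benjamini-Hochberg adjusted p over all genes of the line was below 0.05. The knockdown was visible in its target: IGF1R stood at 6.98, 7.06 and 7.07 in normoxia siControl and at 6.03, 6.28 and 6.39 with siIGF1R, and at 8.23 to 8.65 against 6.19 to 7.02 in hypoxia. The hypoxia-induced peptide hormone gene ADM rose by 1.62 ± 0.08 in WM35 Control and by 0.71 ± 0.09 in Mel-624 siControl. Of 8 melanocyte markers, 6 were tested in Mel-624, while WM35 had SOX10 and MITF only, with MITF between 4.86 and 5.80 and not detected on every array. The mean raw signal was higher in the WM35 normoxia Control arrays (331 ± 12.3, SD, n = 3) than in the other WM35 groups (256 to 260). Hypoxia Control A differed most from the other arrays of its group, with a standard deviation over genes of 0.292, against 0.195 to 0.254 for the other WM35 arrays.

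**Figure D1:**
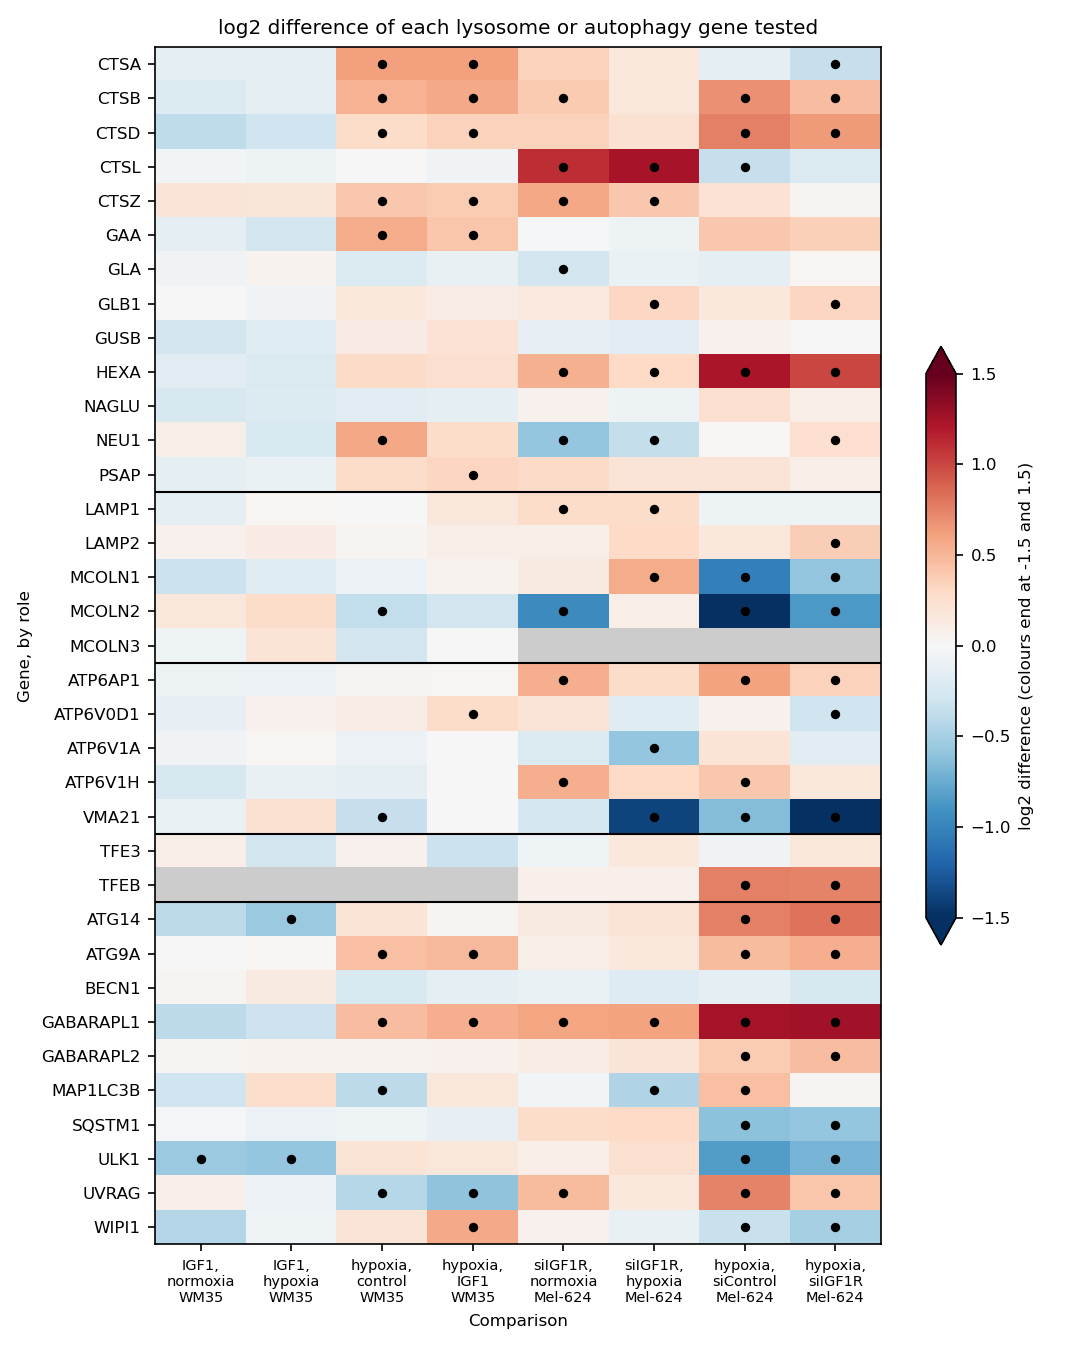
Tiles give the log2 difference of each gene tested (rows, grouped by role) in 8 comparisons (columns), from blue for lower to red for higher; black dots mark an adjusted p below 0.05 and grey tiles genes not tested in that line. ULK1 is the only gene with a dot in both IGF1 columns, and GABARAPL1 has a dot in all 6 columns on the right.

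IGF1 lowered 4 of the 10 autophagy genes described here in WM35, averaged over oxygen, where 7.93% of all genes fell and 7.57% rose. It raised none of the 34 members tested. One of the 4, WIPI1, lost its call without most single arrays. Of 34 other autophagy genes, counted below, 4 rose and 4 fell, so falls without rises were limited to the genes described here. ULK1, the kinase that starts autophagosome formation, fell at both oxygen levels. ATG14, a subunit of the autophagy lipid kinase, and GABARAPL1, an ATG8 protein, fell when the oxygen levels were averaged, and so did CTSD, the main aspartic protease of the lysosome. The comparison asks which transcripts follow the addition of the growth factor.

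ULK1 was measured at 10.09, 9.97 and 9.93 in normoxia Control and at 9.45, 9.45 and 9.43 with IGF1. In hypoxia it was at 10.13, 10.16 and 10.31, and at 9.70, 9.62 and 9.54 with IGF1. Every IGF1 array lay below every Control array at the same oxygen level. The difference was -0.56 ± 0.09 in normoxia (adjusted p = 0.011), -0.58 ± 0.09 in hypoxia (adjusted p = 0.0026) and -0.57 ± 0.06 averaged (adjusted p = 0.00027), a 1.48-fold decrease. Both ULK1 probes tested were called, between -0.58 and -0.51 over the 2 oxygen levels. In normoxia the call was lost without Normoxia Control A or B or Normoxia IGF1 C, with differences of -0.57 to -0.51 and adjusted p from 0.05 to 0.07.

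ATG14 was at 7.25, 7.16 and 7.07 in normoxia Control and at 6.74, 6.70 and 6.87 with IGF1. Its hypoxia arrays read 7.25, 7.26 and 7.61 without IGF1 and 6.70, 6.90 and 6.83 with it. The groups did not overlap at either oxygen level, and the decrease of 0.56 on the log2 scale in hypoxia was called (SE 0.11, adjusted p = 0.011), while that in normoxia, -0.39 ± 0.11, had an adjusted p of 0.1. GABARAPL1 went from 8.33, 8.44 and 8.56 to 7.85, 8.17 and 8.12 in normoxia, and from 8.91, 9.01 and 8.79 to 8.51, 8.69 and 8.58 in hypoxia. Averaged over oxygen GABARAPL1 differed by -0.35 ± 0.08 (adjusted p = 0.01), and ATG14 by -0.48 ± 0.08 (adjusted p = 0.0026). CTSD was at 7.99, 7.91 and 7.87 in normoxia Control against 7.45, 7.60 and 7.56 with IGF1, and at 8.09, 8.26 and 8.23 in hypoxia against 7.87, 7.82 and 7.97. Its averaged difference was -0.34 ± 0.06 (adjusted p = 0.0042), with no overlap at either oxygen level.

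By counts, the test found 0 genes higher and 1 lower in normoxia (of all genes, 0.69% were higher and 0.888% lower) and 0 higher and 2 lower in hypoxia (4.5% and 4.56%). Averaged over oxygen, 0 were higher and 6 lower, against 7.57% and 7.93% of all genes. At an unadjusted p below 0.05, the averaged comparison had 2 of the 34 genes higher and 11 lower. Of all 9569 genes, 2870 passed this looser threshold in either direction. Of the 6 averaged calls, 4 were among the 10 autophagy genes and 1 among the 13 hydrolases tested. The median difference was -0.07 over the 34 genes and 0.00 over all genes. The other averaged calls, WIPI1 (-0.25 ± 0.08, adjusted p = 0.045), a protein that binds the early autophagosome membrane, and MCOLN1 (-0.25 ± 0.07, adjusted p = 0.037), a calcium channel of the lysosome, were the least stable. The WIPI1 call was lost in 10 of 12 fits that left out 1 array (kept without Normoxia Control A or Normoxia IGF1 C) and the MCOLN1 call in 8 (kept without Normoxia Control C, Normoxia IGF1 C, Hypoxia Control A or Hypoxia IGF1 A), with adjusted p up to 0.092 and 0.095. Among the markers, KDR (-0.32 ± 0.08) and SOX10 (-0.21 ± 0.06) also fell with IGF1 on average, and their part in these results was not tested.

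**Figure D2:**
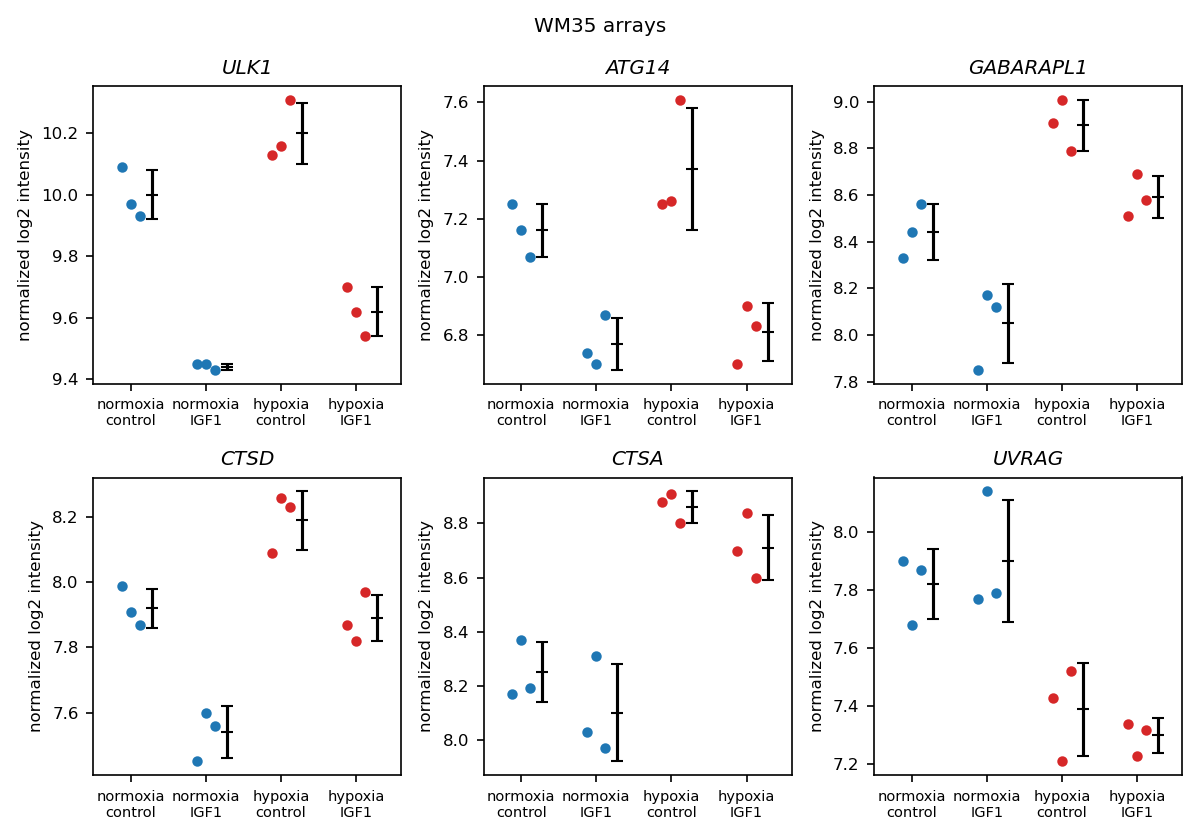
Points are the normalized log2 intensities of the 3 arrays of each WM35 group for 6 genes, blue for normoxia and red for hypoxia, and the bar beside them is the mean with its SD (n = 3); each panel has its own axis, which does not start at 0. ULK1, ATG14 and CTSD are lower with IGF1 at both oxygen levels, and CTSA is higher and UVRAG lower in hypoxia with and without IGF1.

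Hypoxia raised some of the lysosomal hydrolases described here in WM35. Of 13 tested, 6 rose and 0 fell in Control cells (of all genes, 9.98% rose and 10.7% fell). With IGF1, 6 rose and 0 fell (8.19% and 7.36%), the activator precursor PSAP among them. The median difference was 0.27 both times against -0.03 and -0.02 over all genes. CTSA, the protective protein that holds NEU1 and beta-galactosidase together, the cysteine protease CTSB and the sialidase NEU1 were among the genes that rose. UVRAG, a subunit of a late autophagy lipid kinase, fell. Of 23 other lysosomal hydrolases, 3 rose and 1 fell in Control cells, near the shares of all genes. With IGF1, 5 of these 23 rose and 1 fell.

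CTSA was at 8.17, 8.37 and 8.19 in normoxia Control and at 8.88, 8.91 and 8.80 in hypoxia. With IGF1 it was at 8.03, 8.31 and 7.97, and at 8.70, 8.84 and 8.60 in hypoxia. All hypoxia arrays were above all normoxia arrays, with differences of 0.62 ± 0.11 (adjusted p = 0.0019) and 0.61 ± 0.11 (adjusted p = 0.0027). CTSB rose from 9.55, 9.48 and 9.27 to 9.81, 9.97 and 10.07 in Control cells, by 0.52 ± 0.12 (adjusted p = 0.0075), and by 0.57 ± 0.12 with IGF1 (adjusted p = 0.0055). NEU1 rose from 7.62, 7.55 and 7.68 to 8.35, 8.11 and 8.15, by 0.58 ± 0.11 (adjusted p = 0.0032). With IGF1 its difference was 0.27 ± 0.11 and was not called (adjusted p = 0.13). GAA, which degrades glycogen in the lysosome, rose from 6.11, 6.46 and 6.15 to 6.61, 6.83 and 6.95, by 0.56 ± 0.13 (adjusted p = 0.01). The second GAA probe gave 0.17 ± 0.16 in Control cells (adjusted p = 0.51) and 0.84 ± 0.16 with IGF1 (adjusted p = 0.0046), and the mean of both probes was not called in Control cells (0.36, adjusted p = 0.058). The protease CTSZ rose by 0.40 ± 0.09 and CTSD by 0.27 ± 0.09 in Control cells (adjusted p = 0.011 and 0.048), the smallest rises called there.

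Among the autophagy genes, GABARAPL1 rose by 0.46 ± 0.11 in Control cells (adjusted p = 0.011) and by 0.55 ± 0.11 with IGF1 (adjusted p = 0.0053), with hypoxia arrays above normoxia arrays in both. ATG9A, the membrane protein that seeds autophagosomes, was at 8.43, 8.37 and 8.31 in normoxia Control and at 8.88, 8.94 and 8.64 in hypoxia. Its rise was 0.45 ± 0.11 in Control cells (adjusted p = 0.012) and 0.49 ± 0.11 with IGF1 (adjusted p = 0.01). The second ATG9A probe gave 0.20 ± 0.15 in Control cells (adjusted p = 0.36), and the mean of both probes was not called there (0.33, adjusted p = 0.062). UVRAG went from 7.90, 7.68 and 7.87 to 7.43, 7.21 and 7.52, a decrease called at -0.43 ± 0.12 (adjusted p = 0.025), and at -0.60 ± 0.12 with IGF1 (adjusted p = 0.0052). MAP1LC3B, the best known ATG8 protein, was at 9.19, 9.09 and 9.13 in normoxia Control and at 8.54, 8.83 and 8.87 in hypoxia, -0.39 ± 0.11 (adjusted p = 0.024). With IGF1 its difference was 0.17 ± 0.11 and was not called. WIPI1 rose by 0.57 ± 0.11 with IGF1 (adjusted p = 0.0036), where its normoxia arrays were at 6.16 to 6.49 and its hypoxia arrays at 6.82 to 6.92.

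In Control cells, 8 of the 34 genes rose and 4 fell, where 9.98% of all genes were higher and 10.7% lower. With IGF1, 10 rose and 1 fell, against 8.19% and 7.36% of all genes. Among the pump genes, VMA21, which helps assemble the pump, fell in Control cells (-0.34 ± 0.11, adjusted p = 0.044), and ATP6V0D1, a subunit of its membrane part, rose with IGF1 (0.28 ± 0.09, adjusted p = 0.046). The channel gene MCOLN2 fell in Control cells by 0.37 on the log2 scale (SE 0.11, adjusted p = 0.034). PSAP, the precursor of the saposins that help enzymes reach lipids, rose with IGF1 (0.32 ± 0.10, adjusted p = 0.049). No difference between the hypoxia effects with and without IGF1 was called by limma among the 34 genes. Of all 9569 genes, 1 was called higher and 4 lower (0.0105% and 0.0418%). At an unadjusted p below 0.05, 2 of the 34 were higher and 1 lower, where 823 of the 9569 genes passed, a like share.

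Without both Normoxia Control C and Hypoxia Control A, 5 of the 12 Control calls remained, those of CTSA, CTSB, NEU1, GAA and GABARAPL1, all higher. Without Normoxia Control A or B alone, 7 were called. Leaving out 1 array ended the CTSD call (0.24 to 0.30, adjusted p up to 0.15) except for Hypoxia Control A and Normoxia IGF1 A, and the VMA21 call (adjusted p up to 0.14) except for Hypoxia Control B and Normoxia Control C. It ended the ATG9A call without Hypoxia Control B (0.39, adjusted p = 0.056) and the CTSZ call without Normoxia Control B (0.34, adjusted p = 0.051). The MAP1LC3B call was lost without Hypoxia Control A or any one Normoxia Control array (adjusted p up to 0.079), the MCOLN2 call without A or B of either Control group (up to 0.1), and the UVRAG call without Hypoxia Control B or Normoxia Control A or C (up to 0.11). With IGF1, the GAA call was kept only without Hypoxia Control A or C or Normoxia Control B, the PSAP call only without Hypoxia Control A, Normoxia Control C or Normoxia IGF1 A, and the ATP6V0D1 call only without Hypoxia Control A or C, with adjusted p otherwise up to 0.16, 0.15 and 0.14. The CTSD call with IGF1 was lost without Hypoxia IGF1 C or Normoxia IGF1 A, and the CTSZ call without Hypoxia IGF1 B or C or Normoxia IGF1 A or B (adjusted p up to 0.065 and 0.066). Without Hypoxia IGF1 C, 6 genes were called in all, and without Normoxia IGF1 A, Normoxia IGF1 B or Hypoxia IGF1 B, 7.

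Some markers of other cell types moved with hypoxia in WM35 too. CD68, a macrophage marker that is itself a lysosomal membrane protein, was at 8.34 to 8.48 in normoxia Control and at 9.06 to 9.15 in hypoxia, 0.69 ± 0.09 (adjusted p = 0.00013). Of the 7 immune markers 3 were tested, with a summed log2 level of 8.61 to 8.77 in normoxia Control and 9.24 to 9.32 in hypoxia. CD68 made up most of this sum, and the other immune markers tested, CD14 and CSF1R, were not called. The keratinocyte markers KRT8 and KRT18 and the fibroblast marker LUM were not called either. PTPRC, CD3E and ITGAM were not tested there. The single tested endothelial marker, KDR, fell (-0.90 ± 0.11), as did SOX10 (-0.42 ± 0.08). The part of these changes and of the higher raw signal of the normoxia Control arrays in the results was not tested, and in bulk samples fewer cells of a type and less RNA per cell cannot be told apart.

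Silencing of IGF1R raised more lysosomal hydrolases than it lowered in Mel-624. Averaged over oxygen, 8 of 13 hydrolases rose and 2 fell, with a median of 0.24 against 0.01 over all genes, where 18.1% of all genes rose and 16.6% fell. Of 10 autophagy genes 3 rose and 1 fell, which is near those shares. CTSL, a cysteine protease, rose at both oxygen levels to 2.26 times its level on average, the highest rise among the members. GABARAPL1 rose in both as well, and VMA21 fell in hypoxia.

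CTSL was at 12.93, 13.07 and 12.85 in normoxia siControl and at 14.13, 14.12 and 13.93 with siIGF1R. In hypoxia it was at 12.58, 12.57 and 12.65, and at 13.73, 13.84 and 13.96 with siIGF1R. Every siIGF1R array lay above every siControl array at the same oxygen level. The differences were 1.11 ± 0.10 (adjusted p = 3.8e-05) and 1.24 ± 0.10 (adjusted p = 7.1e-06), and the 3 CTSL probes gave 1.11 to 1.55, all called. IGF1 in WM35 left CTSL uncalled, at -0.04 ± 0.15 in normoxia and -0.08 ± 0.15 in hypoxia.

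GABARAPL1 was at 8.95, 8.93 and 9.01 in normoxia siControl and at 9.80, 9.50 and 9.36 with siIGF1R, 0.59 ± 0.11 higher (adjusted p = 0.005). In hypoxia it went from 10.27, 10.27 and 10.09 to 10.91, 10.71 and 10.82, 0.60 ± 0.11 (adjusted p = 0.0024). HEXA, a subunit of beta-hexosaminidase, was at 6.76, 6.83 and 6.86 in normoxia siControl and at 7.38, 7.33 and 7.31 with siIGF1R, 0.53 ± 0.09 (adjusted p = 0.0023). CTSZ rose in normoxia from 11.22, 10.93 and 11.03 to 11.98, 11.57 and 11.38, by 0.58 ± 0.14 (adjusted p = 0.014). These 3 genes showed no overlap between siControl and siIGF1R arrays in normoxia. NEU1 went the other way: it was at 10.13, 10.23 and 10.06 in normoxia siControl and at 9.65, 9.48 and 9.56 with siIGF1R, -0.58 ± 0.09 (adjusted p = 0.0014), and differed by -0.36 ± 0.09 in hypoxia (adjusted p = 0.012). The alpha-galactosidase gene GLA also fell in normoxia, by 0.28 on the log2 scale (SE 0.08, adjusted p = 0.034).

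ULK1, the gene that IGF1 lowered in WM35, was at 9.37, 9.36 and 9.35 in normoxia siControl and at 9.29, 9.56 and 9.54 with siIGF1R, and the arrays overlapped. Its difference was 0.10 ± 0.10 in normoxia and 0.24 ± 0.10 in hypoxia, and neither was called (adjusted p = 0.55 and 0.11). Its second probe gave 0.11 in normoxia and 0.38 in hypoxia, and the latter was called. ATG14 likewise overlapped in normoxia, with 7.78, 7.88 and 8.46 against 8.41, 7.75 and 8.38. GABARAPL1, CTSD and MCOLN1 were called in both lines, averaged over oxygen: lower with IGF1 in WM35 and higher with siIGF1R in Mel-624, CTSD by 0.29 ± 0.09 (adjusted p = 0.031) and MCOLN1 by 0.35 ± 0.09 (adjusted p = 0.011). Of the 34 genes tested in each line, 6 were called lower with IGF1 and 15 higher with siIGF1R, averaged over oxygen. Some genes can fall in both counts with no link between them, and whether more did so than by chance was not tested. The MCOLN1 call with IGF1 was lost in 8 of 12 fits that left out a single array. The CTSD call with siIGF1R was lost in 5 of 12 such fits. The lines were treated by different means for different times, and the effects were not tested against each other.

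VMA21 was at 10.39, 10.23 and 10.42 in normoxia siControl and at 10.10, 10.07 and 10.13 with siIGF1R. In hypoxia it was at 9.69, 9.71 and 9.68, and at 8.0, 8.42 and 8.49 with siIGF1R. The hypoxia siIGF1R arrays were the lowest of the line. siIGF1R lowered it by 1.39 on the log2 scale in hypoxia (SE 0.12, adjusted p = 1.1e-05), a 2.61-fold decrease, and differed by -0.25 ± 0.12 in normoxia (adjusted p = 0.17). The difference between these effects was -1.14 ± 0.17 (adjusted p = 0.011). ATP6V1A, the catalytic subunit of the pump, was at 11.30, 11.41 and 11.27 in hypoxia siControl and at 10.74, 10.83 and 10.68 with siIGF1R, -0.58 ± 0.09 (adjusted p = 0.00059). In normoxia the pump genes ATP6AP1 and ATP6V1H rose with siIGF1R, by 0.54 ± 0.11 (adjusted p = 0.0074) and 0.54 ± 0.13 (adjusted p = 0.015). The second ATP6V1H probe gave 0.16 in normoxia and 0.91 in hypoxia, where the probe read gave 0.30, so the probes disagreed on where the rise was.

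**Figure D3:**
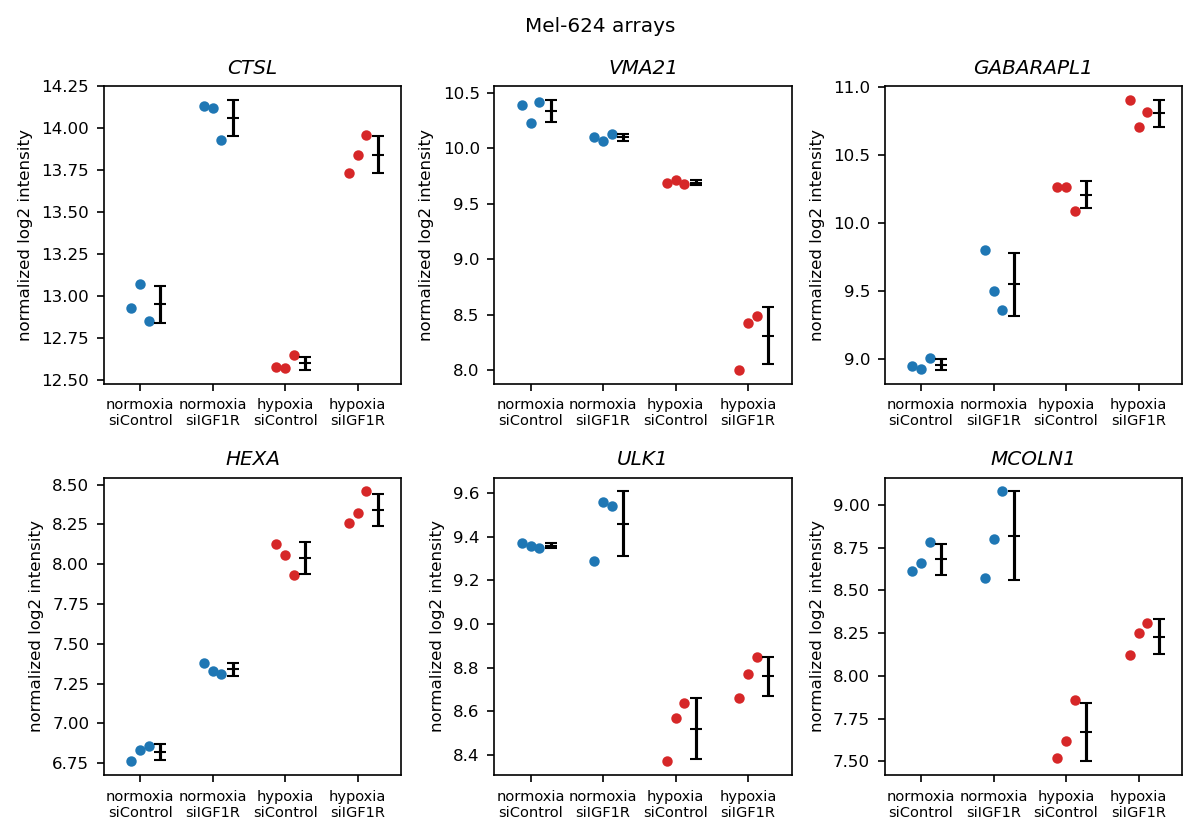
Points are the normalized log2 intensities of the 3 arrays of each Mel-624 group for 6 genes, blue for normoxia and red for hypoxia, and the bar beside them is the mean with its SD (n = 3); each panel has its own axis, which does not start at 0. CTSL is higher with siIGF1R at both oxygen levels, VMA21 is lowest in hypoxia with siIGF1R, and GABARAPL1 and HEXA are higher with hypoxia and with siIGF1R.

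Of the 34 genes, 9 rose and 3 fell with siIGF1R in normoxia, where 8.49% of all genes were higher and 7.47% lower, and 7 rose and 4 fell in hypoxia, against 13.1% and 12.7%. Averaged over oxygen, 15 rose and 6 fell, against 18.1% and 16.6% of all genes. Other calls in hypoxia were MCOLN1 (0.56 ± 0.13, adjusted p = 0.0082), GLB1, the beta-galactosidase (0.31 ± 0.08, adjusted p = 0.015), and MAP1LC3B, which fell (-0.45 ± 0.10, adjusted p = 0.0068). MAP1LC3B was at 9.96, 9.98 and 9.95 in hypoxia siControl and at 9.57, 9.60 and 9.36 with siIGF1R. In normoxia, UVRAG rose (0.48 ± 0.08, adjusted p = 0.0017), with siControl arrays between 8.67 and 8.75 and siIGF1R arrays between 9.14 and 9.25, while its second probe was not called (0.27 ± 0.20, adjusted p = 0.39). MCOLN2 fell in normoxia from 6.58, 6.87 and 6.52 to 5.66, 5.69 and 5.77 (-0.95 ± 0.15, adjusted p = 0.0017). The lysosomal membrane protein LAMP1 rose by 0.27 ± 0.09 in normoxia and by 0.28 ± 0.09 in hypoxia (adjusted p = 0.047 and 0.033). LAMP2, with 6 probes, had 2 of them called higher in normoxia, 1 in hypoxia and 0 lower, while the probe read was not called.

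Some of these calls rested on single arrays. In normoxia, the LAMP1 call was lost without any 1 array but Hypoxia siIGF1R A (adjusted p up to 0.17), the CTSB call (0.39 ± 0.12, adjusted p = 0.038) without any 1 Normoxia siIGF1R array, Normoxia siControl B or C or Hypoxia siControl B (up to 0.13), and the GLA call without any 1 Normoxia siControl array, Hypoxia siControl A or B or Normoxia siIGF1R B or C (up to 0.099). The ATP6V1H call was lost without Normoxia siControl A or Normoxia siIGF1R B (up to 0.067), and the CTSZ call without Normoxia siControl B (0.05). In hypoxia, the CTSZ call (0.40 ± 0.14) was lost without any 1 array but Normoxia siIGF1R A or C (up to 0.15), and the LAMP1 call without any 1 hypoxia array but Hypoxia siIGF1R A (up to 0.1). The HEXA call in hypoxia (0.30 ± 0.09) was lost without B or C of either hypoxia group (up to 0.1), and the GLB1 call without Hypoxia siControl B or Hypoxia siIGF1R C (up to 0.062). Without either of these last 2 arrays, 7 of the 34 genes were called in hypoxia. Of the averaged calls, that of CTSA was lost without Hypoxia siControl A or C, Hypoxia siIGF1R C, Normoxia siControl A or C or Normoxia siIGF1R B (adjusted p up to 0.063), and that of CTSD without Hypoxia siControl A, Hypoxia siIGF1R A, Normoxia siControl C or Normoxia siIGF1R B or C (up to 0.078). The averaged SQSTM1 call (0.28 ± 0.09) was lost without Hypoxia siControl A, Hypoxia siIGF1R B, Normoxia siControl A or Normoxia siIGF1R B or C (up to 0.06), and that of GLA (-0.19 ± 0.06) without Hypoxia siControl A or B (up to 0.052).

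The melanocyte factor MITF, a relative of TFEB, rose with siIGF1R in hypoxia from 11.07, 11.08 and 11.10 to 11.41, 11.58 and 11.68 (0.47 ± 0.10, adjusted p = 0.0041). The 6 melanocyte markers tested had a summed log2 level of 15.61 to 15.68 in hypoxia siControl and 15.67 to 15.76 with siIGF1R, and 15.58 to 15.67 and 15.67 to 15.78 in normoxia. Of the 2 fibroblast markers tested, DCN rose with siIGF1R averaged over oxygen (0.31 ± 0.09, adjusted p = 0.017) and LUM was at -0.05 ± 0.08, uncalled. Their part in the results was not tested. TFEB itself was at 5.39, 5.73 and 5.77 in normoxia siControl and at 5.40, 5.70 and 6.03 with siIGF1R, and TFE3 at 5.65 to 6.31 with siControl and 5.65 to 6.16 with siIGF1R, and neither was called with siIGF1R.

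Hypoxia changed most of the 10 autophagy genes described here in Mel-624. In siControl cells 6 of 10 rose and 3 fell (of all genes, 23.2% and 28.4%), and with siIGF1R 5 rose and 3 fell (22.7% and 27.3%). The number that fell was near the share of all genes. Other autophagy genes, counted below, rose and fell at near the shares of all genes in siControl cells. ULK1 and SQSTM1 fell, and GABARAPL1, ATG14, UVRAG, GABARAPL2 and ATG9A rose. Among the hydrolases, HEXA, CTSD and CTSB rose. Of the channels, MCOLN1 fell and MCOLN2 was below background in hypoxia.

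GABARAPL1 went from 8.95, 8.93 and 9.01 in normoxia siControl to 10.27, 10.27 and 10.09 in hypoxia, a rise of 1.25 ± 0.11 (adjusted p = 1.8e-06) or 2.37-fold, and rose by 1.26 ± 0.11 with siIGF1R (adjusted p = 1.9e-06). HEXA went from 6.76, 6.83 and 6.86 to 8.13, 8.06 and 7.93, 1.23 ± 0.09 (adjusted p = 2.9e-07), and rose by 1.00 ± 0.09 with siIGF1R (adjusted p = 1.6e-06). ULK1 went down from 9.37, 9.36 and 9.35 to 8.37, 8.57 and 8.64, -0.84 ± 0.10 (adjusted p = 2.3e-05), and by 0.70 on the log2 scale with siIGF1R. No hypoxia array of these 3 genes overlapped a normoxia array. Both ULK1 probes tested were called lower. SQSTM1, the cargo receptor p62, went from 11.85, 12.28 and 12.11 to 11.37, 11.56 and 11.47 (-0.61 ± 0.12, adjusted p = 0.0012).

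TFEB was at 5.39 to 5.77 in normoxia siControl, detected on 2 of 3 arrays, and at 6.64, 6.09 and 6.4 in hypoxia, detected on all 3. Its rise was 0.75 ± 0.17 (adjusted p = 0.0023), and 0.74 ± 0.17 with siIGF1R (adjusted p = 0.0024). TFE3 was at 5.65 to 6.31 in normoxia and 5.82 to 6.05 in hypoxia, with overlap and no call. ATG14 rose from 7.78, 7.88 and 8.46 to 8.86, 8.64 and 8.91 (0.76 ± 0.19, adjusted p = 0.0047), and by 0.82 ± 0.19 with siIGF1R. UVRAG rose from 8.75, 8.67 and 8.75 to 9.44, 9.51 and 9.46 (0.74 ± 0.08, adjusted p = 5.9e-06). CTSD rose from 10.06, 10.11 and 9.68 to 10.54, 10.86 and 10.74 (0.76 ± 0.13, adjusted p = 0.00036), and CTSB from 11.13, 10.93 and 10.68 to 11.50, 11.58 and 11.70 (0.68 ± 0.12, adjusted p = 0.00033). GABARAPL2, another ATG8 protein, rose from 11.57, 11.56 and 11.35 to 11.89, 11.91 and 11.80 (0.38 ± 0.10, adjusted p = 0.0089). WIPI1 fell from 10.33, 10.28 and 10.40 to 10.11, 9.96 and 9.94 (-0.33 ± 0.09, adjusted p = 0.0066). Hypoxia and normoxia siControl arrays did not overlap for TFEB, ATG14, UVRAG, CTSD, CTSB, GABARAPL2 or WIPI1. The second UVRAG probe gave 0.43 ± 0.20 and was not called (adjusted p = 0.085), while the second GABARAPL2 probe was called at 0.57 ± 0.18. CTSL, which rose with siIGF1R, fell with hypoxia by 0.35 on the log2 scale in siControl cells (SE 0.10, adjusted p = 0.0093).

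MCOLN1 was at 8.61, 8.66 and 8.78 in normoxia siControl and at 7.52, 7.62 and 7.86 in hypoxia, -1.02 ± 0.13 (adjusted p = 3.2e-05), a 2.03-fold decrease. With siIGF1R it fell by 0.59 on the log2 scale (SE 0.13, adjusted p = 0.0022). MCOLN2, a relative of MCOLN1, was at 6.58, 6.87 and 6.52 in normoxia siControl, and in hypoxia it was not above background on any array with either siRNA. Against the lowest signal among detected probes, it was at least 2.09-fold lower with siControl and at least 1.1-fold lower with siIGF1R (adjusted p = 6e-07 and 0.00048). Group means were 6.65 and 4.75 with siControl, and 5.71 and 4.85 with siIGF1R. Its hypoxia effects differed between the siRNAs by 1.05 ± 0.22 (adjusted p = 0.049), a value that rests on arrays below background and was lost without any 1 array but Hypoxia siIGF1R A, with adjusted p up to 0.11. LAMP2 had 4 of its 6 probes called higher in siControl cells, with all 6 probes between 0.16 and 0.99, and the probe read was at the low end.

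VMA21 fell with hypoxia by 0.65 on the log2 scale in siControl cells (SE 0.12, adjusted p = 0.00049) and by 1.79 with siIGF1R (SE 0.12, adjusted p = 1.7e-07), a 3.46-fold decrease. ATP6AP1, an accessory subunit of the pump, rose from 12.44, 12.52 and 12.45 to 13.05, 13.14 and 13.01 in siControl cells (0.60 ± 0.11, adjusted p = 0.00066). ATP6V1H rose by 0.40 ± 0.13 in siControl cells (adjusted p = 0.021), but its second probe gave -0.02 ± 0.13, and the call was lost without Hypoxia siControl B or Normoxia siControl A (adjusted p up to 0.077). ATP6V0D1 fell with siIGF1R (-0.30 ± 0.10, adjusted p = 0.026) and ATP6V1A was not called. BECN1, the scaffold of the lipid kinase, was at 9.36 to 9.62 in normoxia siControl and at 9.24 to 9.48 in hypoxia, and was called in no comparison of either line.

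In siControl cells 12 of the 34 genes rose and 7 fell, where 23.2% of all genes were higher and 28.4% lower. With siIGF1R 13 rose and 8 fell, against 22.7% and 27.3% of all genes. MCOLN2, which passed the detection filter only through its normoxia arrays, is counted among those that fell. The number of members that fell was thus near or below the share of all genes that fell. The difference between the hypoxia effects with siIGF1R and siControl was called for 1 gene in each direction, MCOLN2 and VMA21, against 0.226% of all genes higher and 0.592% lower. With siIGF1R, the hypoxia calls of CTSA (-0.34 ± 0.11) and ATP6V0D1 were each lost without 4 single arrays, A and B (CTSA) or A and C (ATP6V0D1) of Hypoxia siIGF1R and B and C of Normoxia siIGF1R. That of NEU1 (0.25 ± 0.09) was lost without A or C of Hypoxia siIGF1R or B or C of Normoxia siIGF1R, that of ATP6AP1 (0.34 ± 0.11) without Hypoxia siIGF1R B or C or Normoxia siIGF1R A, and that of LAMP2 (0.37 ± 0.12) without C of either group. Adjusted p then reached 0.12, 0.11, 0.12, 0.087 and 0.058. Of the markers, MITF fell with hypoxia in siControl cells (-0.52 ± 0.10), DCN fell (-0.41 ± 0.13), and LUM rose (0.31 ± 0.11). With siIGF1R MITF (-0.30 ± 0.10) and DCN (-0.44 ± 0.13) fell and CD68 rose (0.32 ± 0.08). MITF was the only 1 of the 6 melanocyte markers called in siControl cells, while with siIGF1R 1 other was called higher. No keratinocyte or endothelial marker was tested in this line, and the part of these markers in the results was not tested.

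The hypoxia effects of Mel-624 siControl and WM35 Control cells were compared on all 24 arrays normalized together. Of 33 genes tested in both lines, the effect was more positive in Mel-624 for 7 and more negative for 7, against 14.8% and 20.3% of all 8371 genes. UVRAG moved in opposite directions and both moves were called: higher in Mel-624 and lower in WM35, a difference of 1.17 ± 0.14 (adjusted p = 1.3e-06). MAP1LC3B did the same, by 0.85 ± 0.15 (adjusted p = 0.00011). ULK1 fell in Mel-624 and was 0.20 ± 0.09 in WM35, uncalled, a difference of -1.03 ± 0.13 (adjusted p = 2.4e-06). CTSA and NEU1 rose in WM35 and were at -0.15 ± 0.11 and 0.03 ± 0.09 in Mel-624, with differences of -0.77 ± 0.16 and -0.56 ± 0.14 (adjusted p = 0.00053 and 0.0037). HEXA and GABARAPL1 had a more positive effect in Mel-624, by 0.92 ± 0.13 and 0.77 ± 0.16. The calls of ATP6V1H (0.54 ± 0.17) and CTSD (0.48 ± 0.16) were lost without Normoxia Control C or Normoxia siControl A, and without Hypoxia siControl B or Normoxia siControl C (adjusted p up to 0.06 and 0.072). The hours in hypoxia differed, 24 h against 3 days, and cannot be told apart from the line.

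**Figure D4:**
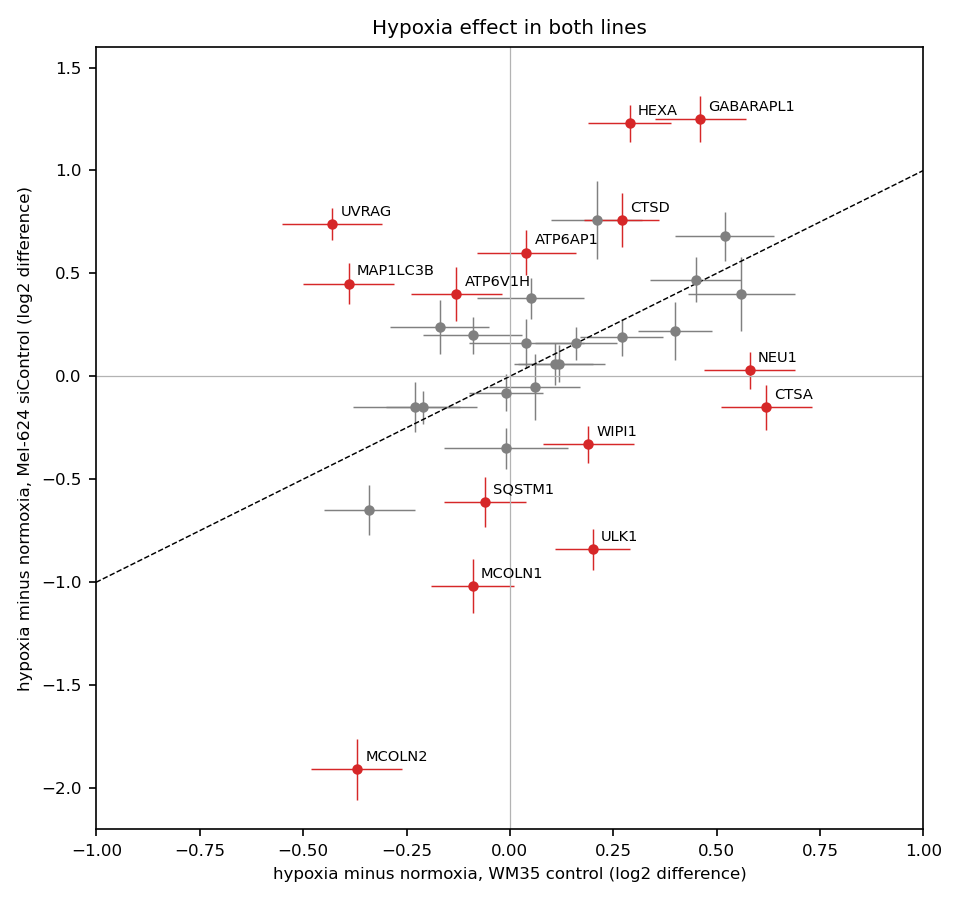
Each point is a gene tested in both lines, with its hypoxia effect in WM35 Control cells (x axis, log2 difference) and in Mel-624 siControl cells (y axis, log2 difference), bars showing the SE; the dashed line marks equal effects, and red, named points have a difference between the lines with an adjusted p below 0.05. UVRAG and MAP1LC3B lie in the upper left, CTSA and NEU1 to the right below the line, and MCOLN2 far below it, with its hypoxia level under background in Mel-624.

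The same genes also stood at different levels in the normoxia control groups of the lines, described here with no test, since each line had its own chip. The Mel-624 siControl cells were also transfected and kept for 3 days, against 24 h without transfection for WM35 Control. On 24 arrays normalized together, the normoxia siControl arrays of Mel-624 lay above the normoxia Control arrays of WM35 for 24 of 35 genes, WM35 lay above for 7, and 4 overlapped. Of all genes 34.5% lay higher in Mel-624 and 38.6% in WM35. WIPI1 was at 6.69 to 6.98 in WM35 and 10.19 to 10.30 in Mel-624. CTSA was at 8.26 to 8.46 and 10.75 to 10.99, CTSZ at 8.46 to 8.65 and 10.83 to 11.11, NEU1 at 7.63 to 7.77 and 9.97 to 10.14, and CTSD at 7.95 to 8.07 and 9.59 to 10.02. The 7 genes with WM35 above were MCOLN2, MCOLN3, VMA21, TFE3, SQSTM1, ULK1 and ATG9A, with ULK1 at 10.03 to 10.18 in WM35 and 9.26 to 9.28 in Mel-624.

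**Figure D5:**
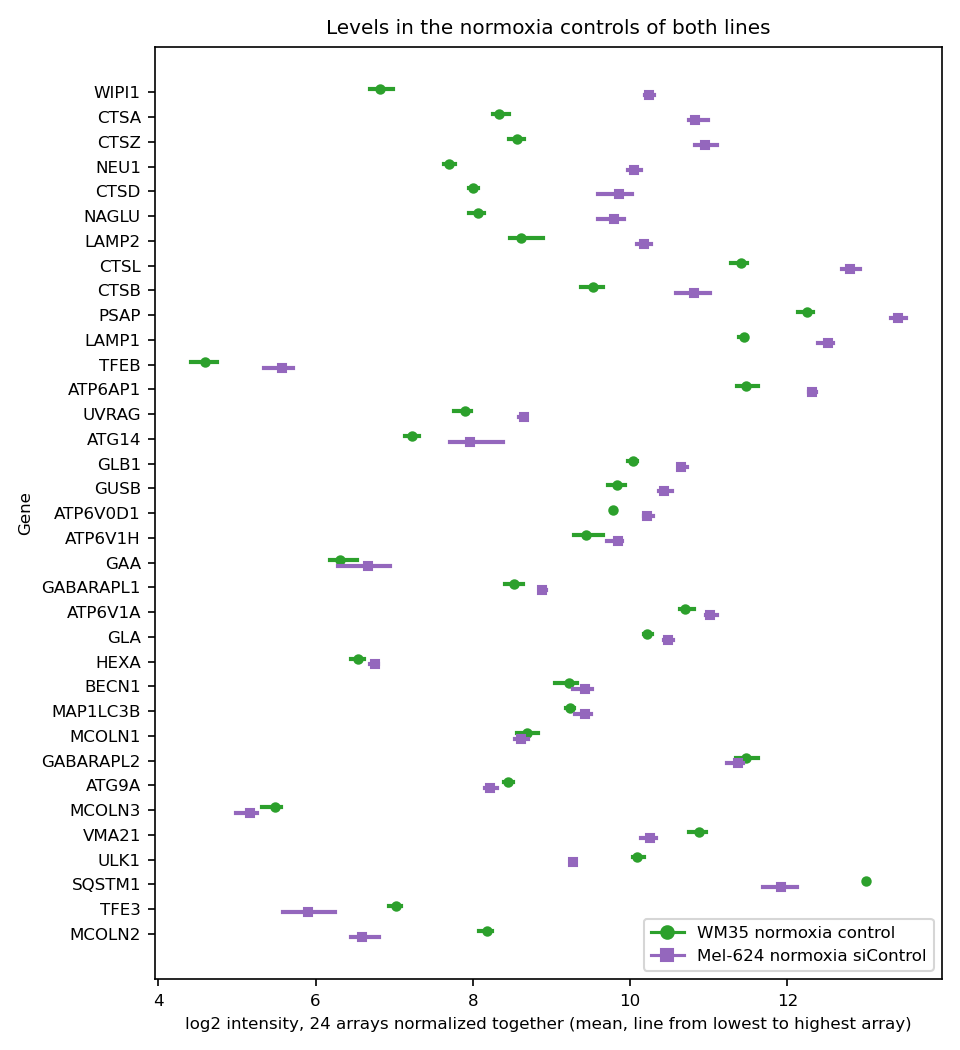
Points are the mean log2 intensity of each gene in the normoxia Control arrays of WM35 (green circles) and the normoxia siControl arrays of Mel-624 (purple squares), and lines run from the lowest to the highest of 3 arrays. The genes with the widest gap, such as WIPI1 and CTSA, are at the top, with Mel-624 higher, and MCOLN2, with WM35 higher, is at the bottom.

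Other genes of the same pathways, from lists that exclude the 37, are given by count. Of all genes, 7.57% rose and 7.93% fell with IGF1 averaged over oxygen, 18.1% and 16.6% with siIGF1R averaged over oxygen, 9.98% and 10.7% with hypoxia in WM35 Control, and 23.2% and 28.4% with hypoxia in Mel-624 siControl, and several of the counts lie near these shares. Of other lysosomal hydrolases, 0 of 23 rose and 3 fell with IGF1 averaged over oxygen in WM35, and 8 of 22 rose and 1 fell with siIGF1R in Mel-624. CTSF, a cysteine protease, fell with IGF1 (-0.37 ± 0.08, adjusted p = 0.0095) and rose with siIGF1R (0.74 ± 0.08, adjusted p = 2.7e-05). With hypoxia, 3 of 23 rose and 1 fell in WM35 Control and 9 of 22 rose and 3 fell in Mel-624 siControl. The beta-mannosidase gene MANBA rose by 1.09 ± 0.11 and IDS, which degrades heparan and dermatan sulfate, by 0.86 ± 0.09 in Mel-624, and by 0.47 ± 0.11 and 0.62 ± 0.10 in WM35. Of other membrane proteins, 2 of 10 rose with siIGF1R and 0 fell, among them the cholesterol transporter NPC1 (0.67 ± 0.07, adjusted p = 2.2e-05). Of other V-ATPase genes, 3 of 14 rose with siIGF1R and 0 fell, and 3 rose and 3 fell with hypoxia in Mel-624 siControl, where ATP6V1C1 fell (-1.26 ± 0.14, adjusted p = 1.1e-05). ATP6V0A2 was not above background on any hypoxia siControl array, at least 2.58-fold below normoxia. Of other autophagy genes, 4 of 34 rose and 4 fell with IGF1 averaged over oxygen, and WDR45, a relative of WIPI1, fell at both oxygen levels (-0.54 ± 0.10 and -0.47 ± 0.10). With siIGF1R 6 of 36 of these rose and 3 fell, no more than the share of all genes. With hypoxia, 5 of 34 rose and 1 fell in WM35 Control. In Mel-624 siControl hypoxia 8 of 36 rose and 11 fell, near the shares of all genes.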

How the data were processed

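Total RNA of 24 samples was hybridised to Illumina BeadChips with 47231 probes. The authors deposited non-normalized probe intensities with detection p-values, exported with GenomeStudio per the submitters' processing notes. A deposited table of normalized intensities, with 38221 probes on a linear scale whose normalization steps no source used here describes, served as an alternative. Precision is limited by 3 arrays per group, and 13948 to 15987 probes were detected per array.

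Each line was background-corrected and quantile normalized with neqc (offset 16) of limma 3.58.1 in R 4.3.3, and the comparison between lines used all 24 arrays normalized together. Probes with a detection p-value below 0.01 on at least 3 of a line's 12 arrays were kept, and the brightest stood for its gene. Genes were named from the platform annotation: 27003 probes had 1 symbol, 4 had several and 20224 none, and 26969 were updated to a current RefSeq symbol. The 4 group means of a line were fitted with lmFit and eBayes, and p-values were adjusted by Benjamini-Hochberg over all genes of the fit. The fit was tested on simulated data. Alternatives covered background correction, normalization, detection filter, probe choice, the arrays fitted, a replicate block, and leaving out arrays.

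Named are members called in a comparison, up to 4 called genes per pathway list and comparison with the smallest p, IGF1R and ADM. The members and lists were chosen with earlier results of these data known. Replicate letters were taken not to pair the samples: deviations of same-letter arrays correlated between -0.28 and 0.41 in WM35 and between -0.04 and 0.18 in Mel-624. Their means were slightly above those of other-letter arrays, 0.03 against -0.01 in WM35 and 0.06 against -0.03 in Mel-624. A small shared effect of the letter thus remains possible, and the replicate block was fitted as an alternative. Promoter windows came from RefSeq (GRCh38.p14), and motifs were counted with Python 3.11.15.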

Additional observations from a re-analysis of the deposited data

Results flagged for a closer look

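The effect of hypoxia differed between siRNAs in Mel-624 for VMA21 (-1.14 ± 0.17, adjusted p = 0.011), which fell further with siIGF1R, and for MCOLN2 (1.05 ± 0.22, adjusted p = 0.049), whose hypoxia arrays were all below background. Both are limma tests of the difference itself.

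The effect of hypoxia differed between Mel-624 siControl and WM35 Control cells for 14 genes by the same kind of test. It was more positive in Mel-624 for UVRAG (1.17 ± 0.14, adjusted p = 1.3e-06), HEXA (0.92 ± 0.13, adjusted p = 7.7e-06), MAP1LC3B (0.85 ± 0.15, adjusted p = 0.00011) and GABARAPL1 (0.77 ± 0.16, adjusted p = 0.00061). The pump genes ATP6AP1 (0.56 ± 0.17, adjusted p = 0.012) and ATP6V1H (0.54 ± 0.17, adjusted p = 0.018) and the protease CTSD (0.48 ± 0.16, adjusted p = 0.021) lay the same way. The effect was more negative in Mel-624 for ULK1 (-1.03 ± 0.13, adjusted p = 2.4e-06), MCOLN1 (-0.92 ± 0.16, adjusted p = 0.00017) and CTSA (-0.77 ± 0.16, adjusted p = 0.00053). It was also more negative there for NEU1 (-0.56 ± 0.14, adjusted p = 0.0037), SQSTM1 (-0.52 ± 0.16, adjusted p = 0.013) and WIPI1 (-0.51 ± 0.13, adjusted p = 0.0041). CTSA and NEU1 were called higher in WM35 and not called in Mel-624. ULK1, MCOLN1, SQSTM1 and WIPI1 were called lower in Mel-624 and not called in WM35. MCOLN2 also had a negative difference (-1.5 ± 0.19, adjusted p = 3.4e-06), but its Mel-624 hypoxia siControl arrays were all below background. Its size is thus not measured, and it ran from -1.79 to -0.89 under the alternatives. The lines differed in chip, transfection and hours of hypoxia, which cannot be told apart.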

How the results depend on the processing

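Of 132 calls on members, 92 were kept in every alternative that gave them a value. Of 2762 values under alternatives, 2500 kept their call, 262 kept their direction without it, and 0 reversed. Member counts moved by over 1.5 times as follows. IGF1 in normoxia had 1 called gene, 3 when probes had to be detected on all 12 arrays, 0 on the arrays of the groups compared alone, and 0 to 2 without single arrays. Hypoxia in WM35 Control had 12, 5 without Normoxia Control C and Hypoxia Control A, and 7 to 11 without single arrays. Hypoxia with IGF1 had 11, 6 on the arrays compared alone, and 6 to 12 without single arrays. siIGF1R in hypoxia had 11, and 7 to 12 without single arrays. The difference between hypoxia effects in Mel-624 had 2, and 1 with the deposited normalized values, no further background correction, no detection filter, detection required on all 12 arrays, each probe fitted alone, or the replicate block, and 1 to 2 without single arrays. With the replicate block, members called were 1, 2 and 5 for IGF1 in normoxia, hypoxia and averaged, 10 and 8 for hypoxia in WM35 without and with IGF1, 12, 12 and 21 for siIGF1R, 20 and 21 for hypoxia in Mel-624 and 15 between lines. Of 12 arrays per line, 7 in WM35 and 9 in Mel-624 correlated best with their own letter, which is 1 of 3 letters.

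Over all genes, IGF1 in normoxia had 151 calls, against 249 with detection on all 12 arrays, 90 with no filter, 87 with the replicate block and 31 on the arrays compared alone. IGF1 in hypoxia had 867, against 436 on the arrays compared alone. The difference of hypoxia effects had 5 calls in WM35, against 8 with deposited values, 2 with the replicate block and 0 without both arrays. In Mel-624 it had 76, against 39 with no further background correction, 136 with detection on all 12 arrays, 32 with no filter and 50 with every probe. The cause of these shifts was not tested beyond the fewer arrays or genes fitted.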

Other observations

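The mitophagy receptors BNIP3 and BNIP3L, which mark mitochondria for autophagy, rose with hypoxia in both lines, in WM35 Control and Mel-624 siControl cells by more than any of the 34 genes tested in each line. BNIP3 was at 11.36, 11.50 and 11.64 in WM35 normoxia Control and at 12.68, 12.54 and 12.63 in hypoxia (1.11 ± 0.13, adjusted p = 8.7e-05). In Mel-624 siControl it went from 11.34, 11.20 and 11.38 to 13.12, 13.21 and 13.29 (1.90 ± 0.11, adjusted p = 4.4e-08). BNIP3L rose by 1.40 ± 0.12 in WM35 Control (adjusted p = 8e-06) and by 1.62 ± 0.13 in Mel-624 siControl (adjusted p = 4.8e-07). No hypoxia array of either gene overlapped a normoxia array.

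Among partners of the MiT factors, RRAGD, a Rag GTPase that ties them to the lysosome, rose with siIGF1R by 0.40 ± 0.06 averaged over oxygen (adjusted p = 0.0002) and with hypoxia in Mel-624 siControl by 0.62 ± 0.08 (adjusted p = 2.9e-05). RRAGC, another Rag GTPase, rose with siIGF1R by 0.41 ± 0.07 (adjusted p = 0.00047), and FNIP2, a cofactor of folliculin, fell by 0.46 on the log2 scale (SE 0.12, adjusted p = 0.0082). FLCN, which encodes folliculin, rose with hypoxia in Mel-624 siControl by 0.90 ± 0.17 (adjusted p = 0.00079). In this list of 7 tested genes, 3 rose and 1 fell with siIGF1R averaged over oxygen, and 2 rose and 2 fell with hypoxia in siControl cells. Of all genes, 18.1% rose and 16.6% fell with siIGF1R, and 23.2% and 28.4% with hypoxia, so the latter counts are near the share of all genes. NBR1, a cargo receptor related to SQSTM1, rose with hypoxia in siControl cells by 1.19 ± 0.14 (adjusted p = 1.5e-05), where SQSTM1 fell.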
